A study of Mus musculus with 12 samples.

Results

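The innate nucleic acid sensors of adult mouse neural stem cells (NSCs) are described here through 10 genes, taken by symbol from a table of 17365 genes: Ddx58, Ifih1, Dhx58, Mavs, Tlr3, Eif2ak2, Adar, Zbp1, Cgas (the current symbol of Mb21d1) and Tmem173. Each has 1 row in the table, and 9 of the 10 held enough counts to be tested, the exception being Zbp1. RNA-seq covered 12 libraries from 2 wild-type NSC lines grown from the subventricular zone of mice 6 to 8 weeks old, ANS4 from MF1 mice and BL6 from C57BL/6 mice. For 3 days the cells received EGF and FGF2 (EGF/FGF, proliferating NSCs), BMP4 alone (BMP, d-qNSCs) or BMP4 with FGF2 (BMP/FGF, p-qNSCs), every factor at 10 ng/ml, so that the quiescent states share BMP4 and the lack of EGF. Each condition had 4 libraries, 2 of each line. A strain is represented by a single line, so strain and line cannot be told apart. The d-qNSC and p-qNSC names stand for the deeply dormant and the primed form of quiescence that the study models in culture.

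Cells recognize foreign or misplaced nucleic acid with a small set of receptors. Cytosolic double-stranded RNA is bound by the RIG-I-like receptors, which signal through the mitochondrial adaptor MAVS, and endosomal double-stranded RNA is bound by TLR3, which signals through TICAM1 (TRIF). Cytosolic DNA is bound by cGAS, whose cyclic dinucleotide product activates STING (Tmem173). Both routes end at the kinases TBK1 and IKKε and at interferon regulatory factors, and several of the sensors are themselves interferon-stimulated genes. These factors are best known in infection, and all of them can be transcribed in cells that are not infected.

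Library totals ran from 18069052 to 19451818 counts, so that 3 counts equalled 0.155 to 0.168 CPM (counts scaled to a common library size). Levels are CPM on library sizes scaled by TMM, given as mean ± SD over the 4 libraries of a condition. Differences are log2 fold changes from edgeR's quasi-likelihood test with the line as a covariate, with Benjamini-Hochberg adjustment over all 13312 genes tested, and a difference was called at an adjusted p (FDR) under 0.05. All 11 NSC and radial glia markers examined were expressed. Their summed level was 7730 to 8396 CPM in EGF/FGF and 10343 to 13790 CPM in BMP and BMP/FGF. The sum hides opposite directions. Nes had means of 569, 126 and 116 CPM in EGF/FGF, BMP and BMP/FGF, and Fabp7 of 2410, 476 and 1386 CPM. Egfr (353, 191 and 243 CPM) and Hes5 (9.24, 4.01 and 6.80 CPM) were also lower in both quiescent states. Sox2, Sox9, Vim, Slc1a3, Gfap, Prom1 and Pax6 had higher means in both quiescent states than in EGF/FGF. Of 14 microglia and macrophage markers 7 had a row in the table. Of these, Tmem119 and Csf1r stayed at means under 0.07 CPM, and Csf1r was at 0 in every BMP library. The 5 neuron markers had a summed level of 13.1 to 17.9 CPM in EGF/FGF, 302 to 610 CPM in BMP and 93.9 to 103 CPM in BMP/FGF. The 4 oligodendrocyte markers went from 12.4 to 14.8 CPM in EGF/FGF to 149 to 174 CPM in BMP and 240.2 to 249 CPM in BMP/FGF, the same order of conditions as Ddx58, Ifih1 and Tlr3. The 3 ependyma markers had 52.7 to 70.3, 177 to 214 and 181 to 189.9 CPM in that order of conditions. The part of these 3 marker lists in the results was not tested. In bulk libraries a change in the number of cells that express a gene and a change in RNA per cell cannot be told apart.

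Ddx58, Ifih1 and Tlr3 rose from EGF/FGF to BMP and again to BMP/FGF, Dhx58 and Eif2ak2 were highest in BMP/FGF, and Cgas and Tmem173 were highest in proliferating cells and low in both quiescent states. Between BMP and EGF/FGF 5 members rose (Ddx58, Ifih1, Mavs, Tlr3 and Adar), against 40.8% of all tested genes. In the same comparison 3 fell (Cgas, Tmem173 and Eif2ak2), against 38.8% of all genes, and Dhx58 was not called. From BMP to BMP/FGF 6 members rose (Ddx58, Ifih1, Dhx58, Tlr3, Eif2ak2 and Tmem173), where the share of all genes was 20.1%. None of the 9 fell, where the share was 21.3%, and Mavs, Cgas and Adar were not called. Between BMP/FGF and EGF/FGF all 9 were called, 7 higher and 2 lower (Cgas and Tmem173), with 40.9% and 38.0% of all genes called in those directions. Most genes thus differed between either quiescent state and the proliferating cells, and the shares of members called there were read against these shares.

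**Figure D1:**
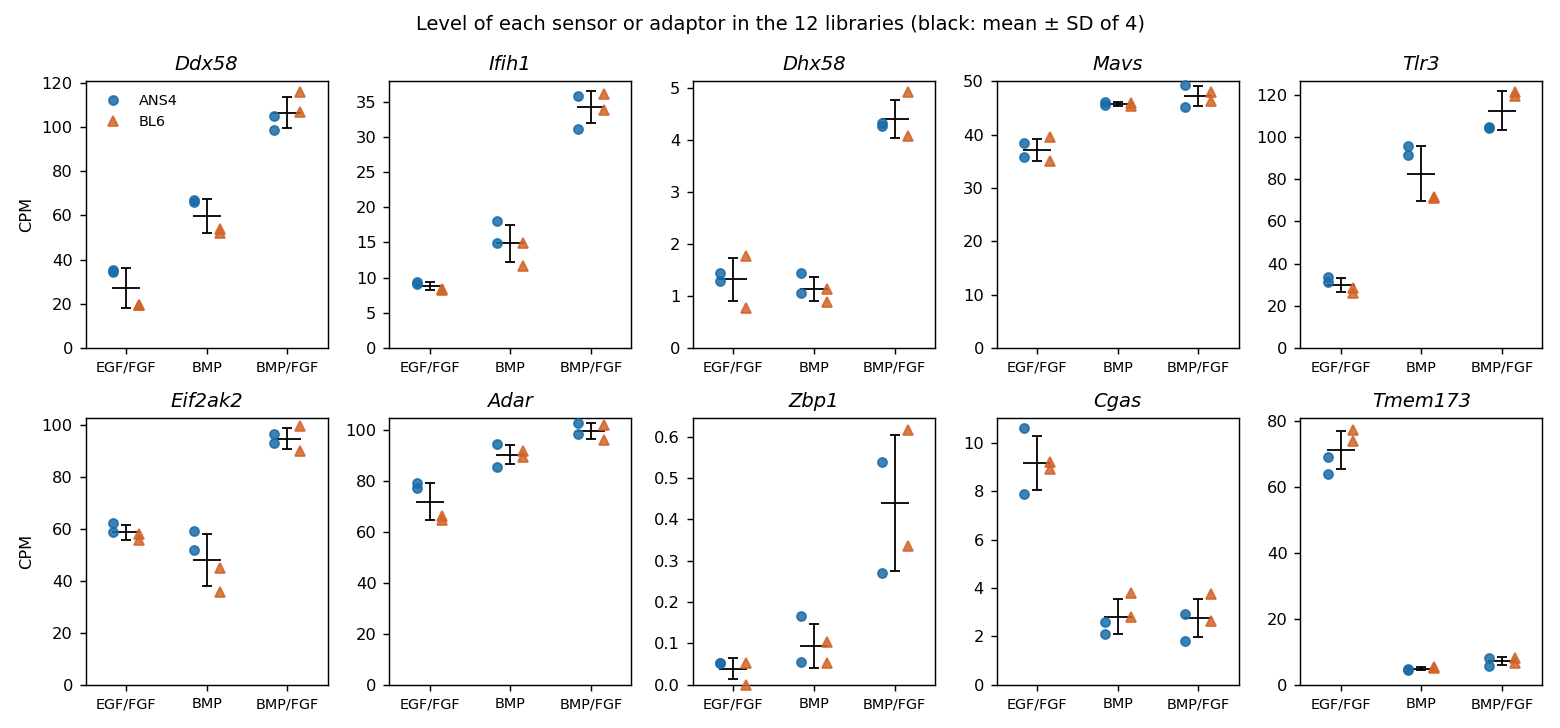
CPM of each of the 10 genes in every library (circles ANS4, triangles BL6) by condition, each panel on its own linear axis from 0, with black bars for the mean ± SD of 4 libraries. Ddx58, Ifih1, Dhx58, Tlr3 and Eif2ak2 stand highest in BMP/FGF, and Cgas and Tmem173 stand highest in EGF/FGF.

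Ddx58 encodes RIG-I, the receptor for short double-stranded RNA with a 5′ triphosphate. It lies on the minus strand of chr4:40203773-40239828 (mm10). Its level in EGF/FGF was 35.4 and 34.6 CPM in the ANS4 libraries and 19.6 and 19.3 CPM in the BL6 libraries. In BMP it reached 67.0 and 66.1 CPM in ANS4 and 54.0 and 52.2 CPM in BL6. In BMP/FGF the values were 105 and 98.6 CPM in ANS4 and 116 and 107 CPM in BL6. The 3 conditions did not overlap, and in the first 2 of them every ANS4 library lay above every BL6 library. The log2 fold change was 1.16 (SE 0.13, adjusted p = 2.7e-07) from EGF/FGF to BMP and 0.86 (SE 0.13, adjusted p = 3.8e-05) from BMP to BMP/FGF. From EGF/FGF to BMP/FGF it was 2.01, a 4.03-fold rise (SE 0.13, adjusted p = 1.6e-10).

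Ifih1 encodes MDA5, the receptor for long double-stranded RNA, on the minus strand of chr2:62595798-62646255. The EGF/FGF libraries held 9.42 and 9.10 CPM in ANS4 and 8.43 and 8.32 CPM in BL6. The BMP libraries held 18.0 and 14.9 CPM in ANS4 and 14.9 and 11.6 CPM in BL6. The BMP/FGF libraries held 31.1 and 35.8 CPM in ANS4 and 36.2 and 33.8 CPM in BL6. Conditions did not overlap for Ifih1 either. It rose by a log2 fold change of 0.75 (SE 0.11, adjusted p = 5.9e-06) from EGF/FGF to BMP and by 1.21 (SE 0.10, adjusted p = 6.9e-08) from BMP to BMP/FGF, where it was 2.31-fold higher. Of its log2 rise from EGF/FGF to BMP/FGF, 38.3% was already present in BMP, against 57.5% for Ddx58.

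Dhx58 encodes LGP2, a RIG-I-like receptor without signalling domains that modulates the other two, on the minus strand of chr11:100694884-100704271. It was the scarcest of the family. Its counts were 28 and 25 in ANS4 and 34 and 15 in BL6 in EGF/FGF, and 19 and 26 in ANS4 and 22 and 17 in BL6 in BMP. In BMP/FGF they were 79 and 80 in ANS4 and 88 and 73 in BL6. The EGF/FGF and BMP libraries overlapped (log2 fold change -0.23, 95% interval -0.75 to 0.30, adjusted p = 0.41). Every BMP/FGF library lay above every other library, with a rise of 1.96 on the log2 scale over BMP, or 3.88-fold (SE 0.21, adjusted p = 1.5e-06). Of the 9 members tested it had the largest change between the quiescent states.

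Mavs, the adaptor that RIG-I and MDA5 share, lies on the plus strand of chr2:131234063-131248025 and moved little. Its level was 37.2 ± 2.08 CPM in EGF/FGF (SD, n = 4), 45.8 ± 0.403 CPM in BMP and 47.3 ± 1.82 CPM in BMP/FGF. It was 1.23-fold higher in BMP than in EGF/FGF (log2 fold change 0.30, SE 0.06, adjusted p = 0.00027). Between BMP and BMP/FGF the difference was 0.05 on the log2 scale, with a 95% interval of -0.08 to 0.17 (adjusted p = 0.58), and the libraries overlapped.

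To compare genes with each other, CPM were divided by the length of the longest annotated transcript in kilobases. On this length-scaled level the 3 RIG-I-like receptors summed to 9.18 ± 2.44 CPM per kb in EGF/FGF, 18.6 ± 2.45 in BMP and 35.6 ± 2.11 in BMP/FGF (SD, n = 4). Divided by the length-scaled level of Mavs in the same library, the sum was 0.756 ± 0.205 in EGF/FGF, 1.24 ± 0.162 in BMP and 2.30 ± 0.131 in BMP/FGF, and the ranges of the 3 conditions did not overlap (0.567 to 0.976, 1.06 to 1.41 and 2.14 to 2.45). The size of this ratio depends on the length used: with the median annotated transcript of each gene, an alternative chosen after seeing the data, it was 1.87 ± 0.525, 3.08 ± 0.399 and 5.68 ± 0.321, in the same order of conditions. Ddx58 made up 75.5% of the sum in EGF/FGF, 82.9% in BMP and 77.3% in BMP/FGF. Ifih1 made up 18.3%, 14.6% and 17.6% in the same order, and Dhx58 6.20%, 2.51% and 5.11%. The Dhx58 share in BMP, 2.07 to 2.93%, lay below all libraries of the other conditions.

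**Figure D2:**
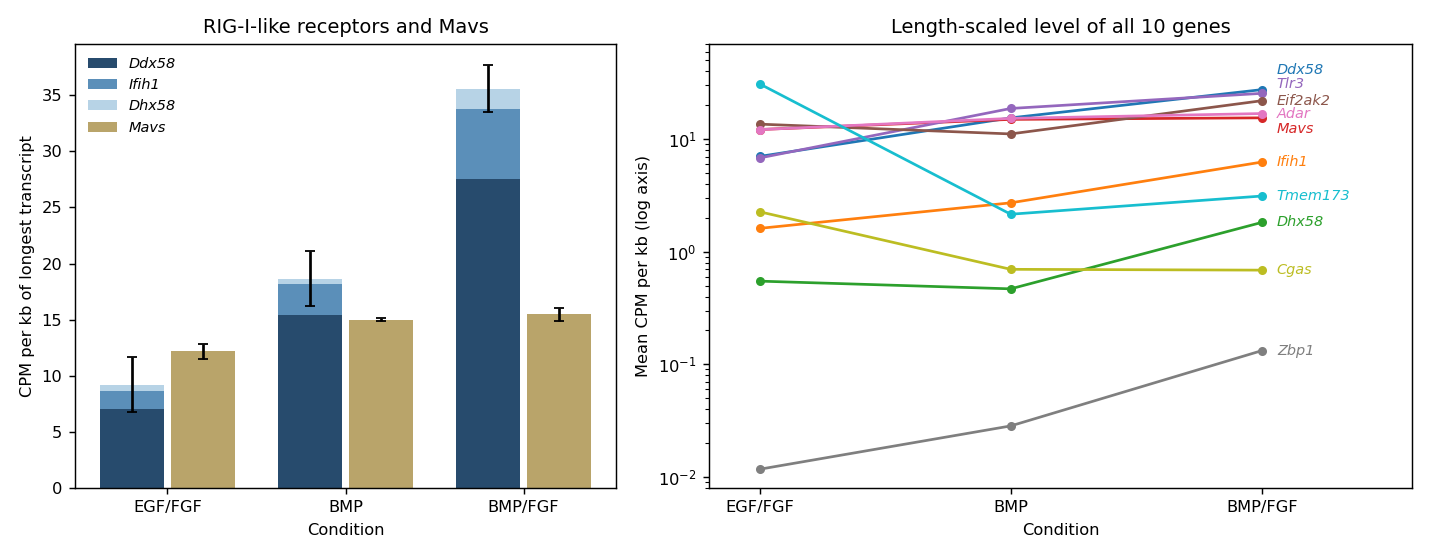
Left, stacked bars of the mean length-scaled level (CPM per kb of the longest transcript) of Ddx58, Ifih1 and Dhx58 beside Mavs, with SD of the sum and of Mavs over 4 libraries. Right, the mean length-scaled level of the 10 genes by condition on a log axis. The receptor sum goes from 9.18 to 35.6 CPM per kb while Mavs goes from 12.2 to 15.5, and Tmem173, by its longest transcript, goes from the first place to the seventh.

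Promoter windows of RefSeq (build GRCm38.p6, 250 bases before to 50 after an annotated start) were at hand for 7 of the 10 members, with 3 starts for Adar. Dhx58, Tmem173 and Zbp1 had no window. The search thus leaves out Dhx58, which had the largest rise of the tested members from BMP to BMP/FGF (log2 fold change 1.96). It also leaves out Tmem173, which was called higher in that step (0.54). They were searched for the core of the interferon-stimulated response element, written GAAANNGAAA, on both strands. A match was present in the windows of Ddx58, Ifih1 and Eif2ak2, the members of the 7 with the largest rises from BMP to BMP/FGF, and in 3.44% of all 32851 windows of the same length. The 3 windows are shown to place the match, which is in capitals, each 5′ to 3′ on the strand of the gene.
Ddx58 (chr4:40239776-40240075, minus strand): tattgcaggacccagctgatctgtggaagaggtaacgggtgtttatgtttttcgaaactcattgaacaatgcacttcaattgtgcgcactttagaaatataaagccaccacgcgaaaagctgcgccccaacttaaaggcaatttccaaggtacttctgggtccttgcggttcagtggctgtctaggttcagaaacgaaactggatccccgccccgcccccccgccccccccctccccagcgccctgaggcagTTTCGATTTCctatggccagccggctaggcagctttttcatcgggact
Ifih1 (chr2:62646206-62646505, minus strand): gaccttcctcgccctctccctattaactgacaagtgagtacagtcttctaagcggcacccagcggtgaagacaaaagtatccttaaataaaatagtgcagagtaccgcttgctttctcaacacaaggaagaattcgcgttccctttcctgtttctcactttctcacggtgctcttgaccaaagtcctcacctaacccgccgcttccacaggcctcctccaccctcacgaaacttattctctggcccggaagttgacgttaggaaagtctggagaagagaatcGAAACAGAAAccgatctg
Eif2ak2 (chr17:78882523-78882822, minus strand): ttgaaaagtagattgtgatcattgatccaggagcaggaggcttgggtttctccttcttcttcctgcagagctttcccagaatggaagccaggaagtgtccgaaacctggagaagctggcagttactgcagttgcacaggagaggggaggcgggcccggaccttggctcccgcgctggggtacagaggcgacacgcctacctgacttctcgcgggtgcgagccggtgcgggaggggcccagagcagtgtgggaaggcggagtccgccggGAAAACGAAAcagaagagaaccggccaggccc
All 3 matches fell just downstream of the annotated start, at bases 2 to 11 for Ddx58 (on the opposite strand), 32 to 41 for Ifih1 and 18 to 27 for Eif2ak2. The windows of Tlr3, Mavs, Cgas and Adar held no exact match. The search allowed no differing letter, and the Tlr3 window and 1 of the Adar windows each hold a run that differs from the core by 1 letter. How common such runs are among all windows was not tested, so the split between members rests on the exact core. The core of the STAT-binding GAS element, TTCNNNGAA, which reads the same on both strands, was found in the Eif2ak2 window (bases -178 to -170) and at 1 of the Adar starts, and in 8.30% of all windows. A match is a run of letters and no measure of binding.

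Tlr3, the endosomal receptor for double-stranded RNA, lies on the minus strand of chr8:45395665-45411080. In EGF/FGF it was at 33.9 and 31.4 CPM in ANS4 and at 26.0 and 28.7 CPM in BL6. In BMP it was at 91.4 and 95.8 CPM in ANS4 and at 71.7 and 71.1 CPM in BL6. In BMP/FGF it was at 104 and 105 CPM in ANS4 and at 120 and 121 CPM in BL6. No condition overlapped with another, and most of the rise was there in BMP (76.0% of the log2 rise). The log2 fold change was 1.46 (SE 0.10, adjusted p = 1.9e-10) from EGF/FGF to BMP and 0.46 (SE 0.09, adjusted p = 0.00077) from BMP to BMP/FGF. Within ANS4 alone the second step was 0.16 (adjusted p = 0.054), against 0.76 within BL6 alone.

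Eif2ak2 encodes PKR, the kinase that is activated by double-stranded RNA and phosphorylates the translation initiation factor eIF2α. It lies on the minus strand of chr17:78852564-78882573. Its EGF/FGF libraries held 62.2 and 58.8 CPM in ANS4 and 55.5 and 57.9 CPM in BL6, and its BMP libraries 59.1 and 51.9 CPM in ANS4 and 45.0 and 35.8 CPM in BL6. The BMP/FGF libraries lay above all of these, at 92.9 and 96.4 CPM in ANS4 and at 89.7 and 99.4 CPM in BL6. From BMP to BMP/FGF Eif2ak2 rose 1.99-fold (log2 fold change 0.99, SE 0.09, adjusted p = 2.5e-07). From EGF/FGF to BMP it fell by 0.30 on the log2 scale (SE 0.09, adjusted p = 0.0069). The libraries of these conditions overlapped (two-sided exact permutation p = 0.114 over 70 divisions, where the smallest possible is 0.0286), and within ANS4 alone the change was -0.13 (adjusted p = 0.13). Its order over the conditions, lowest in BMP, was thus unlike that of the other RNA sensors with 2 called steps.

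Adar encodes the deaminase that edits adenosine to inosine in double-stranded RNA and thereby limits its recognition by MDA5. It lies on the plus strand of chr3:89715022-89753446. The level was 77.1 and 79.0 CPM in ANS4 and 64.8 and 66.2 CPM in BL6 in EGF/FGF. It was 85.5 and 94.5 CPM in ANS4 and 89.4 and 91.9 CPM in BL6 in BMP, and 103 and 98.3 CPM in ANS4 and 96.1 and 102 CPM in BL6 in BMP/FGF. Adar rose 1.26-fold from EGF/FGF to BMP (log2 fold change 0.33, SE 0.06, adjusted p = 0.00013). From BMP to BMP/FGF the 2 groups did not overlap (exact permutation p = 0.0286), whereas the fit across all genes gave 0.14 (SE 0.06, adjusted p = 0.085) and no call. Chrnb2, on the opposite strand, overlaps Adar in the annotation and moved from 2.40 ± 0.289 CPM in EGF/FGF to 27.6 ± 4.32 CPM in BMP and 15.7 ± 0.507 CPM in BMP/FGF. Whether reads of the 2 genes were told apart by strand is not given in the sources used here.

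Zbp1 encodes a sensor of Z-form nucleic acid that can start necroptosis, on the minus strand of chr2:173206612-173218923, and was close to the limit of detection. Its counts were 1 and 1 in ANS4 and 1 and 0 in BL6 in EGF/FGF, and 1 and 3 in ANS4 and 2 and 1 in BL6 in BMP. In BMP/FGF they were 10 and 5 in ANS4 and 11 and 6 in BL6, above every library of the other conditions. Summed over 4 libraries, 32 counts in BMP/FGF stood against 7 in BMP, a depth-scaled ratio of 4.68 with a 95% counting interval of 2.03 to 12.6 (exact binomial, counting error only). Against the 3 counts of EGF/FGF the ratio was 11.3 (3.54 to 57.7). For BMP against EGF/FGF it was 2.41 (0.551 to 14.5), an interval that includes 1. The exact permutation test on CPM gave p = 0.0286 for that comparison, as the groups did not overlap. The highest EGF/FGF value (0.05205 CPM) and the lowest BMP value (0.05214 CPM) were 1 count each. Their order rests on library size alone, so no conclusion is drawn from this p. With no filter on low counts edgeR gave an adjusted p of 0.0062 for BMP/FGF against BMP and of 0.25 for BMP against EGF/FGF.

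Cgas, the cytosolic DNA sensor, lies on the minus strand of chr9:78430526-78443237. In EGF/FGF its counts were 205 and 153 in ANS4 and 177 and 173 in BL6. In BMP they were 47 and 38 in ANS4 and 73 and 54 in BL6, and in BMP/FGF 54 and 34 in ANS4 and 47 and 67 in BL6. Both quiescent states lay below all EGF/FGF libraries and overlapped with each other. Cgas was 3.26-fold lower in BMP (log2 fold change -1.70, SE 0.17, adjusted p = 6.4e-08) and 3.32-fold lower in BMP/FGF (-1.73, SE 0.18, adjusted p = 6.0e-08) than in EGF/FGF. The difference between the quiescent states was -0.03, with a 95% interval of -0.45 to 0.40 (adjusted p = 0.93).

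Tmem173 encodes STING, the adaptor that cGAS activates, on the minus strand of chr18:35733679-35740554. It had the largest change of the 9 tested members. The EGF/FGF libraries held 64.1 and 69.1 CPM in ANS4 and 77.4 and 74.0 CPM in BL6. The BMP libraries held 4.86 and 4.54 CPM in ANS4 and 5.39 and 5.01 CPM in BL6, and the BMP/FGF libraries 8.03 and 5.77 CPM in ANS4 and 8.21 and 6.70 CPM in BL6. Tmem173 was 14.4-fold lower in BMP than in EGF/FGF (log2 fold change -3.84, SE 0.10, adjusted p = 4.8e-16), the place 59 by p-value among 13312 genes. In BMP/FGF it was 9.90-fold lower than in EGF/FGF (-3.31, SE 0.09, adjusted p = 2.0e-15). The quiescent states did not overlap, BMP/FGF being 1.45-fold above BMP (0.54, SE 0.11, adjusted p = 0.0011). Among the markers of microglia, which express Tmem173 strongly, Itgam went from 9.90 ± 2.15 CPM to 3.37 ± 0.401 and 5.43 ± 0.498 CPM over the same conditions and Cd68 from 4.12 ± 0.453 to 1.15 ± 0.629 and 2.43 ± 0.465 CPM. The 7 listed markers together summed to 59.0 to 69.7 CPM in EGF/FGF, 57.9 to 68.5 CPM in BMP and 79.8 to 86.8 CPM in BMP/FGF. Their part in the Tmem173 result was not tested.

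**Figure D3:**
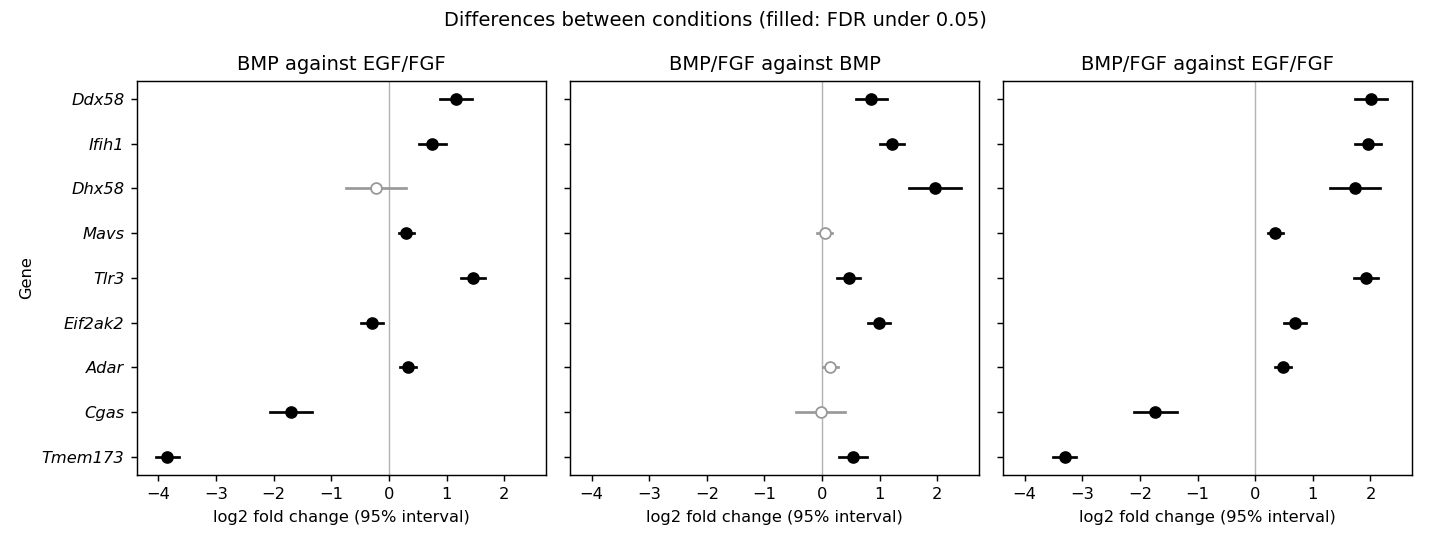
Log2 fold change (points) with its 95% interval (lines) for the 9 tested genes in the 3 comparisons, filled where the adjusted p was under 0.05. Tmem173 and Cgas lie at -3.84 and -1.70 in BMP against EGF/FGF, and Dhx58 lies farthest to the right, at 1.96, in BMP/FGF against BMP.

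Counted by libraries, 7 of the 9 tested members did not overlap between BMP/FGF and BMP, where 35.6% of all tested genes did not. The count was 7 of 9 for BMP against EGF/FGF (71.1% of all genes) and 9 of 9 for BMP/FGF against EGF/FGF (75.8%). By length-scaled level over the longest transcript, the order in EGF/FGF began with Tmem173 (31.0 ± 2.53 CPM per kb), followed by Eif2ak2 (13.6 ± 0.647), Mavs (12.2 ± 0.681) and Adar (12.2 ± 1.24). The ranges of Eif2ak2 and Mavs overlapped, as did those of Mavs and Adar. Ddx58 (7.02 ± 2.31) and Tlr3 (6.80 ± 0.776) came next and overlapped, then Cgas (2.26 ± 0.275), Ifih1 (1.61 ± 0.0967), Dhx58 (0.548 ± 0.172) and Zbp1 (0.0117 ± 0.00779). In BMP, Tlr3 (18.7 ± 2.94), Ddx58 (15.4 ± 2.01), Adar (15.3 ± 0.648) and Mavs (14.98 ± 0.132) overlapped, each with the next, above Eif2ak2 (11.1 ± 2.30). Ifih1 (2.72 ± 0.476), Tmem173 (2.15 ± 0.154), Cgas (0.698 ± 0.174) and Dhx58 (0.468 ± 0.0962) followed there, the first pair overlapping and the last pair as well. In BMP/FGF the order began with Ddx58 (27.5 ± 1.85) and Tlr3 (25.5 ± 2.10), which overlapped, then Eif2ak2 (21.9 ± 0.974), Adar (16.9 ± 0.529) and Mavs (15.5 ± 0.594). Ifih1 (6.26 ± 0.420) lay above Tmem173 (3.12 ± 0.503), which had gone from the first place to the seventh, and Dhx58 (1.82 ± 0.151) lay above Cgas (0.686 ± 0.195). This order depends on the length used. With median transcript lengths Eif2ak2 (88.0 ± 4.19 CPM per kb) stood above Tmem173 (79.1 ± 6.45) in EGF/FGF, and Tlr3 (159 ± 13.1) and Eif2ak2 (142 ± 6.31) stood above Ddx58 (74.6 ± 5.02) in BMP/FGF. Tmem173 then went from the second place to the seventh.

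The 2 lines differed in 3 of the RNA sensors. For the step from BMP to BMP/FGF, the line difference (BL6 minus ANS4, log2) was called for Tlr3, Ddx58 and Eif2ak2, 3 of 9 members against 13.5% of all genes. It was 0.60 for Tlr3 (SE 0.09, adjusted p = 0.00063), 0.46 for Ddx58 (SE 0.10, adjusted p = 0.0047) and 0.46 for Eif2ak2 (SE 0.13, adjusted p = 0.030). The Eif2ak2 call was lost in 7 of 18 other settings, 5 of which left out a single library (adjusted p up to 0.13). The Ddx58 call was lost with limma-trend on the deposited rlog values (adjusted p = 0.054). In mean CPM, Ddx58 went up 2.10-fold in BL6 and 1.53-fold in ANS4, Tlr3 1.69-fold and 1.12-fold, and Eif2ak2 2.34-fold and 1.71-fold. For BMP against EGF/FGF the lines differed in Ddx58 only (0.52, SE 0.11, adjusted p = 0.0057; 9.02% of all genes), a call also lost on the rlog values (adjusted p = 0.053 by limma-trend). For BMP/FGF against EGF/FGF they differed in Ddx58 (0.98, SE 0.10, adjusted p = 3.7e-05) and Tlr3 (0.46, SE 0.10, adjusted p = 0.014), where 4.98% of all genes were called. The Tlr3 call in this last comparison was lost when any of 6 single libraries was left out (adjusted p up to 0.098).

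Within a condition, BL6 was compared with ANS4 directly, 2 libraries against 2. In EGF/FGF Ddx58 was 1.798-fold lower in BL6 (-0.85, SE 0.08, adjusted p = 4.7e-06) and Adar 1.19-fold lower (-0.25, SE 0.07, adjusted p = 0.035), where 6.75% of all genes were called. The Adar call was lost when any of 8 single libraries was left out, with adjusted p from 0.055 to 0.22. In BMP 3 members were lower in BL6, against 23.0% of all genes in either direction. These were Eif2ak2 (-0.46, SE 0.10, adjusted p = 0.0026), Tlr3 (-0.39, SE 0.07, adjusted p = 0.00052) and Ddx58 (-0.33, SE 0.07, adjusted p = 0.0027). This Ddx58 call was lost with limma-trend on the rlog values (adjusted p = 0.051). In BMP/FGF edgeR called 0 of 9 members between the lines, where 0.736% of all genes were called, and at an unadjusted p under 0.05 it gave 1, Tlr3.

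**Figure D4:**
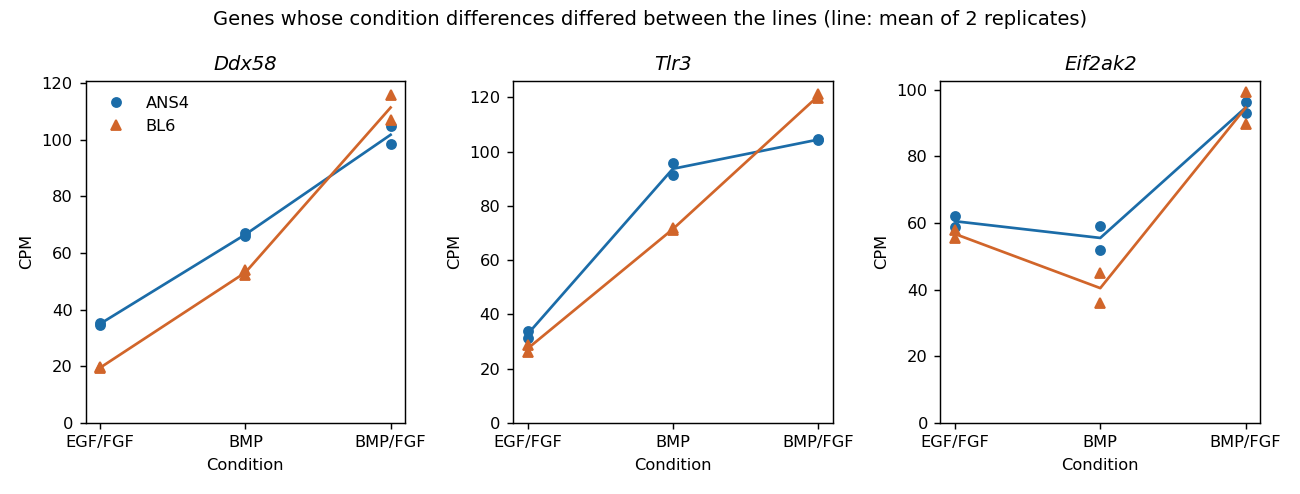
CPM of Ddx58, Tlr3 and Eif2ak2 in each library by condition, circles for ANS4 and triangles for BL6, with lines through the mean of the 2 replicates. The ANS4 libraries lie above the BL6 libraries in BMP for all 3 genes, and in BMP/FGF the BL6 libraries of Ddx58 and Tlr3 lie above those of ANS4.

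Around the members, 153 other genes of the sensing pathways were listed in 7 groups, of which 142 had a row and 129 were tested. From BMP to BMP/FGF 44 of the 129 rose (34.1%, against 20.1% of all tested genes) and 22 fell (17.1%, against 21.3%), with a median log2 fold change of 0.10 against 0.00 over all tested genes. The lists were chosen with earlier results of these data known. They hold Ifit1, Irf7 and Usp18, which the paper named in its interferon signature of p-qNSCs. The share that rose is therefore partly set by the choice of genes and is no independent result. From EGF/FGF to BMP 52 rose (40.3%, all genes 40.8%) and 56 fell (43.4%, all genes 38.8%), with a median of -0.04 against 0.02. From EGF/FGF to BMP/FGF 58 rose (45.0%, all genes 40.9%) and 51 fell (39.5%, all genes 38.0%), with a median of 0.00 against 0.02. Both sets of shares lay near those of all genes.

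**Figure D5:**
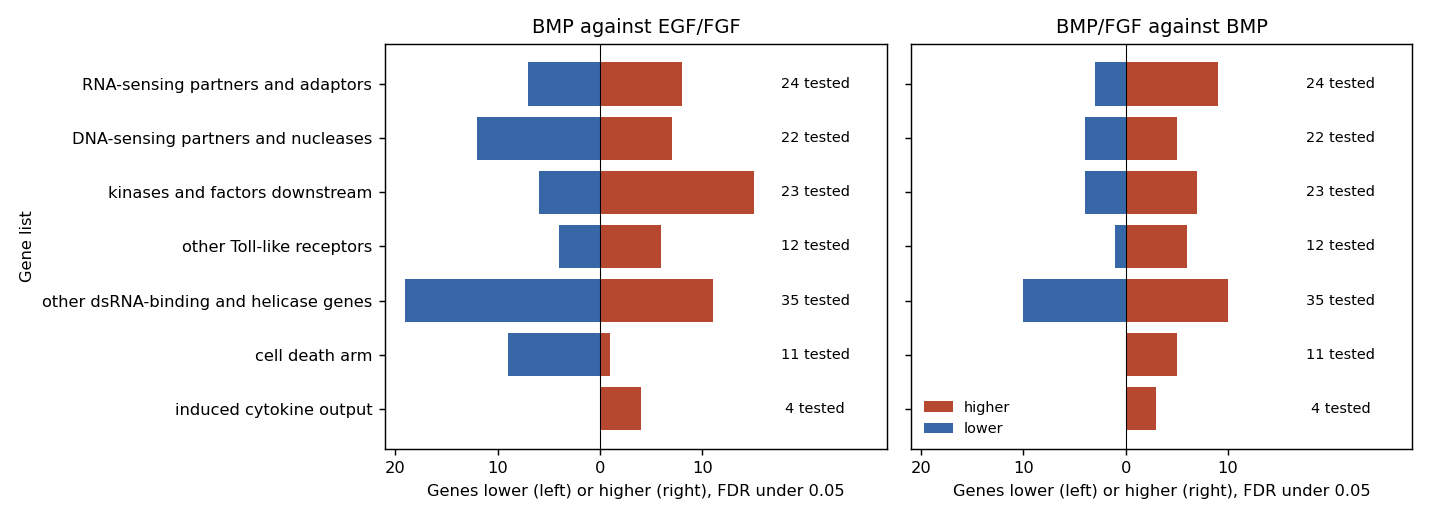
Number of genes of each of the 7 pathway lists called higher (right) or lower (left) at an adjusted p under 0.05, out of the number tested, in the step from EGF/FGF to BMP (left panel) and from BMP to BMP/FGF (right panel). In the cell death list 9 of 11 genes are lower in BMP than in EGF/FGF (38.8% of all tested genes). In the same list 5 are higher in BMP/FGF than in BMP (20.1% of all tested genes).

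Of 24 RNA-sensing partners and adaptors, 9 rose (37.5%) and 3 fell (12.5%) from BMP to BMP/FGF, against 20.1% and 21.3% of all genes. Ifit1, which binds foreign RNA caps, went from 17.9 ± 2.38 to 91.4 ± 3.50 CPM (log2 fold change 2.38, adjusted p = 5.2e-08). Trim25, a ubiquitin ligase described as an activator of RIG-I, was lowest in BMP, at 1.75 ± 0.456 CPM in EGF/FGF, 0.703 ± 0.252 in BMP and 2.52 ± 0.446 in BMP/FGF, and both steps were called (-1.32, adjusted p = 0.00010, and 1.85, adjusted p = 1.0e-05). Unc93b1, which carries nucleic acid-sensing Toll-like receptors to endosomes, rose by 1.21 from BMP to BMP/FGF (adjusted p = 0.0057). Rnf135, also called Riplet, another ligase of RIG-I, rose earlier, by 0.98 from EGF/FGF to BMP (adjusted p = 3.4e-07), and its second step was not called (0.22, adjusted p = 0.11). From EGF/FGF to BMP 8 of the 24 rose (33.3%) and 7 fell (29.2%), against 40.8% and 38.8% of all genes. Among them were Ifit1 (1.55, adjusted p = 6.3e-06) and Tomm70a, a mitochondrial import receptor that also binds MAVS (-1.25, adjusted p = 1.6e-11). Prkra, the protein activator of PKR, fell by 0.25 from EGF/FGF to BMP (adjusted p = 0.0018) and rose by 0.19 from BMP to BMP/FGF (adjusted p = 0.023). Ticam1, the adaptor of TLR3, was at 11.1 ± 1.67, 12.03 ± 2.44 and 13.1 ± 1.69 CPM and was called in none of the 3 comparisons (adjusted p from 0.13 to 0.53). Traf3, which acts downstream of MAVS and TICAM1, fell by 0.29 from EGF/FGF to BMP (adjusted p = 0.0033).

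Of 22 tested DNA-sensing partners and nucleases, 7 rose (31.8%) and 12 fell (54.5%) from EGF/FGF to BMP, against 40.8% and 38.8% of all genes. From BMP to BMP/FGF 5 rose (22.7%) and 4 fell (18.2%), near the 20.1% and 21.3% of all genes. Ifi204, a member of the IFI200 family of DNA-binding proteins, went from 3.84 ± 1.13 CPM in EGF/FGF to 0.177 ± 0.188 in BMP and 0.739 ± 0.374 in BMP/FGF (-4.41, adjusted p = 7.5e-08, and 2.05, adjusted p = 0.012), and near-identical family members make its reads uncertain. Enpp1, which degrades the product of cGAS, fell by 2.86 on the log2 scale from EGF/FGF to BMP (adjusted p = 6.1e-06). Trex1, the exonuclease that removes cytosolic DNA, moved the other way, from 0.943 ± 0.649 to 4.02 ± 0.556 and 6.77 ± 0.739 CPM (2.08, adjusted p = 3.3e-05, and 0.75, adjusted p = 0.033). It overlaps Atrip on the same strand, so its counts are uncertain. Samhd1, a nucleotide hydrolase, fell by 0.53 from EGF/FGF to BMP (adjusted p = 7.2e-07) and rose by 0.24 to BMP/FGF (adjusted p = 0.0074).

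Of 23 downstream kinases and factors, 15 rose (65.2%) and 6 fell (26.1%) from EGF/FGF to BMP, against 40.8% and 38.8% of all genes. From BMP to BMP/FGF 7 rose (30.4%) and 4 fell (17.4%), against 20.1% and 21.3% of all genes. The kinases differed. Tbk1 was at 40.6 ± 2.20, 34.4 ± 3.17 and 35.6 ± 3.50 CPM, a fall of 0.24 from EGF/FGF to BMP (adjusted p = 0.014), whereas Ikbke, encoding IKKε, went from 0.660 ± 0.129 to 4.68 ± 0.686 and 3.60 ± 0.518 CPM (2.81, adjusted p = 6.4e-11, and -0.38, adjusted p = 0.034). Irf3, the factor they phosphorylate, fell by 0.25 from EGF/FGF to BMP (adjusted p = 0.0058). Irf5 (2.62, adjusted p = 2.1e-08) and Tnfaip3, a feedback inhibitor (2.11, adjusted p = 1.0e-10), had large rises in BMP. Irf5 held only 5 to 9 counts in EGF/FGF libraries. From BMP to BMP/FGF the interferon-stimulated genes Usp18 (2.56, adjusted p = 3.0e-08) and Irf7 (1.94, adjusted p = 6.7e-07) had the largest rises of the list. Irf3, Irf5 and Irf7 overlap the protein-coding genes Bcl2l12, Tnpo3 and Phrf1 in the annotation, each on the opposite strand. Cxcl10, Ccl2, Tomm70a and Traf3, named in other lists, also overlap a protein-coding gene on the opposite strand. As for Adar, whether strand told the reads of such genes apart is not given in the sources used here.

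Among 12 tested genes of other Toll-like receptors and their partners, 6 rose (50.0%) and 4 fell (33.3%) from EGF/FGF to BMP. The shares of all genes were 40.8% and 38.8%. From BMP to BMP/FGF 6 rose (50.0%) and 1 fell (8.33%), against 20.1% and 21.3% of all genes. The receptors that rose most in BMP recognize bacterial lipoproteins. Tlr2 went from 0.259 ± 0.195 to 5.29 ± 0.466 and 7.34 ± 0.939 CPM (4.32, adjusted p = 3.2e-10 for the first step), Tlr6 rose by 2.44 (adjusted p = 0.00034) and Tlr1 by 2.28 (adjusted p = 2.5e-09). Tlr1 fell by 1.02 on the log2 scale from BMP to BMP/FGF (adjusted p = 9.0e-05). Tlr5, the flagellin receptor, had 2 to 3 counts in the BMP libraries and 17 to 34 in the BMP/FGF libraries. Cd14, a co-receptor, rose by 0.64 (adjusted p = 0.0017). The nucleic acid receptors Tlr7 and Tlr9 held too few counts to be tested.

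Of 35 other double-stranded RNA-binding and helicase genes, 11 rose (31.4%) and 19 fell (54.3%) from EGF/FGF to BMP. The shares of all genes were 40.8% and 38.8%. From BMP to BMP/FGF 10 rose (28.6%) and 10 fell (28.6%), against 20.1% and 21.3% of all genes. The falls in BMP included Ddx21, a nucleolar helicase (248.9 ± 23.0 to 75.4 ± 6.30 CPM, -1.72, adjusted p = 1.8e-13), and Eif2s1, which encodes eIF2α, the substrate of PKR (-1.57, adjusted p = 1.6e-12). Oasl1 fell by 2.45 on the log2 scale (adjusted p = 1.7e-07) and rose by 1.67 from BMP to BMP/FGF (adjusted p = 0.00024). Ddx60, a helicase related to antiviral defence, went from 3.58 ± 0.565 to 14.6 ± 2.51 CPM between BMP and BMP/FGF (2.02, adjusted p = 2.3e-09), and Oas2 from 0.311 ± 0.128 to 1.14 ± 0.189 CPM (1.86, adjusted p = 0.00014). Adarb1, the second editing enzyme, was highest in BMP (0.58, adjusted p = 2.3e-05, then -0.35, adjusted p = 0.0063), unlike Adar.

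Of 11 tested genes of the cell death arm, 1 rose (9.09%) and 9 fell (81.8%) from EGF/FGF to BMP by edgeR. The shares of all genes were 40.8% and 38.8%. From BMP to BMP/FGF 5 rose (45.5%) and 0 fell, against 20.1% and 21.3% of all genes. Mlkl, the executor of necroptosis, went from 14.0 ± 1.27 to 2.66 ± 0.774 and 5.93 ± 0.913 CPM (-2.41, adjusted p = 6.6e-11, and 1.17, adjusted p = 2.4e-05). Casp8 went from 15.3 ± 1.45 to 3.22 ± 0.388 and 4.40 ± 0.413 CPM (-2.25, adjusted p = 7.0e-12, and 0.45, adjusted p = 0.013). Gsdmd, the pore-forming protein of pyroptosis, held 25 to 37 counts in EGF/FGF libraries, 0 to 2 in BMP libraries and 9 to 12 in BMP/FGF libraries. Ripk3, the kinase between ZBP1 and MLKL, was at most 0.518 CPM in any library and was not tested.

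Of 14 genes that these pathways induce as cytokines or secreted factors, 8 had a row in the table and 4 were tested. The listed interferon genes Ifnb1, Ifna4, Ifnl2 and Ifnl3 had no row. All 4 rose from EGF/FGF to BMP (40.8% of all genes) and 3 of them from BMP to BMP/FGF (20.1% of all genes). Cxcl10, a chemokine, went from 9.90 ± 4.03 to 32.1 ± 3.85 and 81.8 ± 5.71 CPM (1.73, adjusted p = 1.5e-09, and 1.35, adjusted p = 1.3e-07). Isg15, a secreted ubiquitin-like protein, rose by 2.23 from BMP to BMP/FGF (adjusted p = 2.3e-08). Cxcl9 held 0 to 1 counts in EGF/FGF libraries, 4 to 6 in BMP libraries and 25 to 42 in BMP/FGF libraries. Ccl2 rose by 1.68 in BMP (adjusted p = 3.5e-08) and stayed near that level in BMP/FGF, at 11.5 ± 2.25 and 13.5 ± 1.32 CPM.

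By the pattern of log2 CPM over the 12 libraries, the genes most like a member were found among all tested genes. Since the libraries fall into 3 conditions, high correlations are common, and they are given as a description. The genes most like Ddx58 were Igtp (r = 0.996), H2-T10 (0.992) and Cxcl10 (0.992). Those most like Ifih1 were Nfkbiz (0.990), Ifit1bl2 (0.989) and Gbp3 (0.989), and those most like Dhx58 were Phf11d (0.959), Anxa6 (0.958) and Gbp4 (0.956). Igtp, Gbp3 and Gbp4 are interferon-inducible GTPases. Tlr3 was closest to Fam229b (0.998), Ctso (0.997) and Efr3b (0.997), Eif2ak2 to Emc2 (0.982), Bcap29 (0.977) and AI987944 (0.973), and Adar to Vps28 (0.988), Acaa1a (0.985) and Acot2 (0.984). Mavs was closest to Catspere2 (0.982), Lrrc51 (0.978) and Galt (0.977). For Cgas the nearest genes were Tnpo3 (0.981), Ppp2r2a (0.979) and Csnk1g1 (0.977), and for Tmem173 they were Lamb1 (0.998), Iqgap1 (0.997) and Chst11 (0.997).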

How the data were processed

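Bulk RNA-seq was made from 12 libraries, 2 replicates of each of 2 lines in 3 conditions, on BGISEQ-500RS after low input preparation. Trimming by the authors used Trim Galore 0.5.0, transcript abundances on mm10 came from kallisto 0.44.0, and gene sums from Tximport were deposited as rounded estimated counts. A second deposited table holds log2 values (rlog of DESeq2 1.27.32) and was used only in an alternative. Design notes call the 2 libraries of a line and condition biological replicates and do not say whether they were separate cultures, so p-values measure the spread between these samples.

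Genes were filtered with filterByExpr (13312 of 17365 kept), scaled by TMM (factors 0.972 to 1.03) and modelled with glmQLFit over the 12 libraries on condition and line. Line differences came from a model of the 6 line and condition groups. Tests were two-sided, with Benjamini-Hochberg adjustment across the 13312 genes. Exact permutation tests used log2 of CPM with 0.1 added. Log2 CPM for likeness used a prior count of 2. Positions and lengths came from GENCODE vM21. Intervals on counts are 95% and cover counting error only. R 4.3.3 with edgeR 4.0.16, limma 3.58.1 and DESeq2 1.42.0, and Python 3.11.15 with scipy 1.17.1 and pandas 2.3.3, were used. The fit was tested on simulated data. Members and lists were chosen with earlier results of these data known. Named were all members, the 3 largest called changes of each list in BMP/FGF against BMP and in BMP against EGF/FGF, fixed pathway partners, and the 3 genes most like each tested member. For some of these the values of the single gene are left out here. Other settings tried were another scaling, test, filter or covariate, a replicate block, a single line, only the libraries compared, and each library left out in turn.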

Additional observations from a re-analysis of the deposited data

Results flagged for a closer look

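In 6 cases the change between conditions differed between the lines by the test of the difference itself (BL6 minus ANS4, log2). From BMP to BMP/FGF these were Tlr3 with 0.60, Ddx58 with 0.46 and Eif2ak2 with 0.46. From EGF/FGF to BMP it was Ddx58 with 0.52, and from EGF/FGF to BMP/FGF they were Ddx58 with 0.98 and Tlr3 with 0.46. The Ddx58 value of 0.98 goes with a BL6 level in EGF/FGF of 19.4 CPM against 35.0 CPM in ANS4 and with levels of 111 and 102 CPM in BMP/FGF. One library stood apart from the 3 others of its condition: Zbp1 in EGF/FGF was at 0.0 CPM in BL6 replicate 2, where the other libraries held 0.0517 to 0.0520 CPM, which is 1 count each. Of 30 groups of 4 libraries examined this was the 1 that stood apart. Its counts were 1, 1, 1 and 0, so a difference of 1 count sufficed. The chance rate of about 1 in 20, meant for continuous values, does not apply to it.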

How the results depend on the processing

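The counts of members called in the 3 comparisons of conditions moved by at most 1.5 times under all 66 repeats over 22 other settings, and 588 of 594 repeats of the single members' changes kept their direction and their side of the threshold. The exceptions were Tlr3 from BMP to BMP/FGF (0.16, adjusted p = 0.054) and Eif2ak2 from EGF/FGF to BMP (-0.13, adjusted p = 0.13) in ANS4 libraries alone, and the uncalled Cgas difference between BMP/FGF and BMP, which was 0.013 in ANS4 alone and ran from -0.18 to 0.12 when 1 library was left out.

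The line differences were less stable. For BMP against EGF/FGF 0 members were called by limma-trend on the deposited rlog values, where Ddx58 had 0.42 (adjusted p = 0.053), and 1 to 3 when a library was left out (3 without BL6 BMP replicate 1). For BMP/FGF against EGF/FGF 1 to 2 were called with a library left out, and for BL6 against ANS4 within EGF/FGF 1 to 3. Calls lost were those of Tlr3 without either ANS4 or either BL6 BMP/FGF library or replicate 1 of either EGF/FGF pair, and of Adar without any EGF/FGF or BMP/FGF library. The Eif2ak2 line difference from BMP to BMP/FGF was lost in 7 of 18 settings, with adjusted p up to 0.13. The BL6 BMP replicates differed most of all replicate pairs, with a chi-square of 11.8 per gene between their counts, against 2.10 to 4.59 elsewhere. The cause of the lost calls was not tested. Where 1 library was left of a line and condition, it was assumed to vary like the others.

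Single-line fits moved 3 list counts for BMP/FGF against BMP: Toll-like receptor genes from 7 to 4 in ANS4 alone, and DNA-sensing partners from 9 to 5 and downstream factors from 11 to 7 in BL6 alone. With the median instead of the longest transcript length the Ifih1 share of the receptor sum was 13.4%, 10.5% and 12.8% in EGF/FGF, BMP and BMP/FGF. On linear CPM the share of the rise to BMP/FGF already seen in BMP was 41.1% for Ddx58, 23.8% for Ifih1 and 63.7% for Tlr3.

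Replicates with the same number did not deviate together (correlations of -0.07 to 0.05 between pairs of groups over 13312 genes). With the number as a replicate block, edgeR called 6 members between the quiescent states, 8 between BMP and EGF/FGF and 9 between BMP/FGF and EGF/FGF, and 5025 genes in all between the quiescent states, against 5513 without the block. The low counts of Dhx58 and Zbp1 limit what can be said of them.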
